A study of Mus musculus with 12 samples.

Results

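Ketone body synthesis and use was followed in kidney through 4 genes: Oxct1, Bdh1, Acat1 and Slc16a1. The genes were chosen by name, by mapping NCBI Gene numbers to symbols, and all 4 were found among the 27179 genes of the table and passed the filter on low values. Earlier results of these data were known at that choice, so counts of called genes beside the share of all genes are a description. The libraries were whole-kidney RNA of 12 mice, 3 in each of 4 groups, with an age given as 8-12 weeks. The study's methods state that age for mice at injection. Wild-type mice and {Gamma}GT1-Cre;Fan1-/- mice (FAN1KO) received saline or cisplatin, a platinum drug that crosslinks DNA, at 2 mg/kg into the peritoneum once a week for 5 weeks. In FAN1KO mice the Cre recombinase is driven by the Ggt1 promoter, so that the Fan1 nuclease gene is deleted in proximal tubule cells and kept in the other cells of the kidney. The labels give the strain background as Mixed for every animal, and the study's methods describe a backcross to 129Sv-Elite. Values are TPM (a transcript level corrected for gene length and library depth), and fold changes are on the scale of log2(TPM + 1).

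Ketone bodies are small acids made from acetyl-CoA, chiefly in liver mitochondria during fasting, and burned in the mitochondria of other organs. The proximal tubule of the kidney reabsorbs filtered ketone bodies and, like heart and muscle, carries the enzymes that return them to acetyl-CoA. β-Hydroxybutyrate enters cells through monocarboxylate transporters such as MCT1 (Slc16a1) and is oxidized to acetoacetate by β-hydroxybutyrate dehydrogenase (Bdh1), acetoacetate is activated to acetoacetyl-CoA by succinyl-CoA:3-ketoacid CoA transferase (Oxct1), and mitochondrial acetoacetyl-CoA thiolase (Acat1) splits the product into acetyl-CoA.

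Fan1 itself (330554) ranged over 1.98 to 3.80 TPM in wild-type and 1.17 to 2.28 in FAN1KO mice under saline, and over 2.33 to 3.57 and 1.55 to 3.51 under cisplatin, so the genotypes overlapped under both treatments and are those of the labels. Y-linked RNA was present in 4 libraries, 1 in each group (mean log2 level of Ddx3y, Eif2s3y, Kdm5d and Uty 3.46 to 3.93, against at most 0.10 in the other 8): wild-type saline replicate 3, FAN1KO saline replicate 1, wild-type cisplatin replicate 1 and FAN1KO cisplatin replicate 3. Wild-type saline replicate 2 also held RNA of adrenal cortex (summed markers 55.6 TPM, against at most 2.98 elsewhere) and the highest level of adipose markers (58.4 TPM). The tissue was kidney by its markers in every library, with the 8 proximal tubule markers summing to at least 1543 TPM.

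The bases just before the transcription start are shown for 3 of the 4 genes, those with an entry in the promoter sequences used. Each sequence is the 250 bases before a start in the RefSeq annotation of GRCm38.p6, the plus strand, 5′ to 3′: chr15:4026178-4026427 for Oxct1, chr16:31422047-31422296 and chr16:31428503-31428752 for Bdh1, which has 2 starts, and chr3:104638414-104638663 for Slc16a1. Capitals mark a match to 1 of 7 motifs searched on both strands. These were AGGTCA of nuclear receptors, the longer DR1 motif (2 such sites 1 base apart, which overlaps the first), CACGTG or the E-box, the NRF1 motif, GGGCGG of Sp factors, CCAAT or the CCAAT box, and TATAAA or the TATA box. Acat1 had no entry there and is named only.
Oxct1: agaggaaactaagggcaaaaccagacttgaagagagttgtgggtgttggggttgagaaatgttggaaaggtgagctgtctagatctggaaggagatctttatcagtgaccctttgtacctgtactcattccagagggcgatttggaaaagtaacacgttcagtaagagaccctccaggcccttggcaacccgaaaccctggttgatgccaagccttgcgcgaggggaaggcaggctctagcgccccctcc
Bdh1, outer start: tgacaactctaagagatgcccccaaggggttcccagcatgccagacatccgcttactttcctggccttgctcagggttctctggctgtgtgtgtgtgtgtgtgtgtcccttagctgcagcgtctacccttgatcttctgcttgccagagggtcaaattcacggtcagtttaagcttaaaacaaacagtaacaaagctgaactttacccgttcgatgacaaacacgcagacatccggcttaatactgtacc
Bdh1, inner start: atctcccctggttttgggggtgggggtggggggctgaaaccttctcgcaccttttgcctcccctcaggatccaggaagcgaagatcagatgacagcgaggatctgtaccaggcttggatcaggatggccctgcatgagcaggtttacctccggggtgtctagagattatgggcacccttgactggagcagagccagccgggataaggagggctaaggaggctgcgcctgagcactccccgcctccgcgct
Slc16a1: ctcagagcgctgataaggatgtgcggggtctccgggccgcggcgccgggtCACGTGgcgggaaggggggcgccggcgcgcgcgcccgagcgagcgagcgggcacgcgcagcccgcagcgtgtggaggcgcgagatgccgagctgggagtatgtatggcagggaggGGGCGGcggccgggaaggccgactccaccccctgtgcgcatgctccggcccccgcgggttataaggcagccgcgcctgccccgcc

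None of the 7 motifs was found in the Oxct1 window or in either Bdh1 window, and the Slc16a1 window held 1 CACGTG and 1 GGGCGG. Over all 32851 promoter windows of the same length, CACGTG was found in 6.02% and GGGCGG in 32.7%. The nuclear receptor motif AGGTCA was found in 14.0% of windows, CCAAT in 33.8%, TATAAA in 12.4%, the NRF1 motif in 0.782% and the DR1 motif in 0.0335%. The Slc16a1 window was 76.4% G or C with 37 CG dinucleotides, and the Oxct1 window was 52.0% G or C with 6. These matches describe letters only.

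Oxct1 (67041, chromosome 15, 4026428 to 4155344), the enzyme that commits acetoacetate to oxidation, was the most abundant of the 4 genes in each group mean. Its TPM was 613, 613 and 539 in saline-treated wild-type mice, 524, 529 and 559 in saline-treated FAN1KO mice, 476, 427 and 418 in cisplatin-treated wild-type mice and 151, 167 and 208 in cisplatin-treated FAN1KO mice. The 3 cisplatin-treated FAN1KO kidneys lay below every other library, and cisplatin-treated wild-type kidneys lay between them and the saline groups.

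Bdh1 (71911, chromosome 16, 31422297 to 31458901), which interconverts β-hydroxybutyrate and acetoacetate, was at 155, 153 and 156 TPM in saline-treated wild-type mice, 86.6, 133 and 62.2 in saline-treated FAN1KO mice, 108, 121 and 133 in cisplatin-treated wild-type mice and 48.3, 54.1 and 61.6 in cisplatin-treated FAN1KO mice. Wild-type saline kidneys were within 3 TPM of each other and above all other libraries. Saline-treated FAN1KO mice were spread widely, and the lowest of them was close to the highest FAN1KO cisplatin kidney.

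Acat1 (110446, chromosome 9, 53580522 to 53610350), the mitochondrial thiolase that also serves isoleucine breakdown, was at 304, 308 and 589 TPM in saline-treated wild-type mice, 526, 314 and 301 in saline-treated FAN1KO mice, 511, 255 and 274 in cisplatin-treated wild-type mice and 123, 133 and 187 in cisplatin-treated FAN1KO mice. In every group 1 library stood above the other 2, and it was the library with Y-linked RNA. All 3 cisplatin-treated FAN1KO kidneys were below the other 9 libraries.

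Slc16a1 (20501, chromosome 3, 104638664 to 104658462), the transporter of lactate, pyruvate and ketone bodies, was much less abundant. Its TPM was 8.55, 7.56 and 12.0 in saline-treated wild-type mice, 14.8, 10.3 and 12.4 in saline-treated FAN1KO mice, 24.0, 19.3 and 8.28 in cisplatin-treated wild-type mice and 17.7, 20.1 and 17.5 in cisplatin-treated FAN1KO mice. The wild-type cisplatin group held both the highest value and 1 of the 3 lowest, while cisplatin-treated FAN1KO mice lay close together. The depth behind these levels was 766 to 3599 recovered reads per library for Slc16a1 and 3365 or more for each enzyme.

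**Figure D1:**
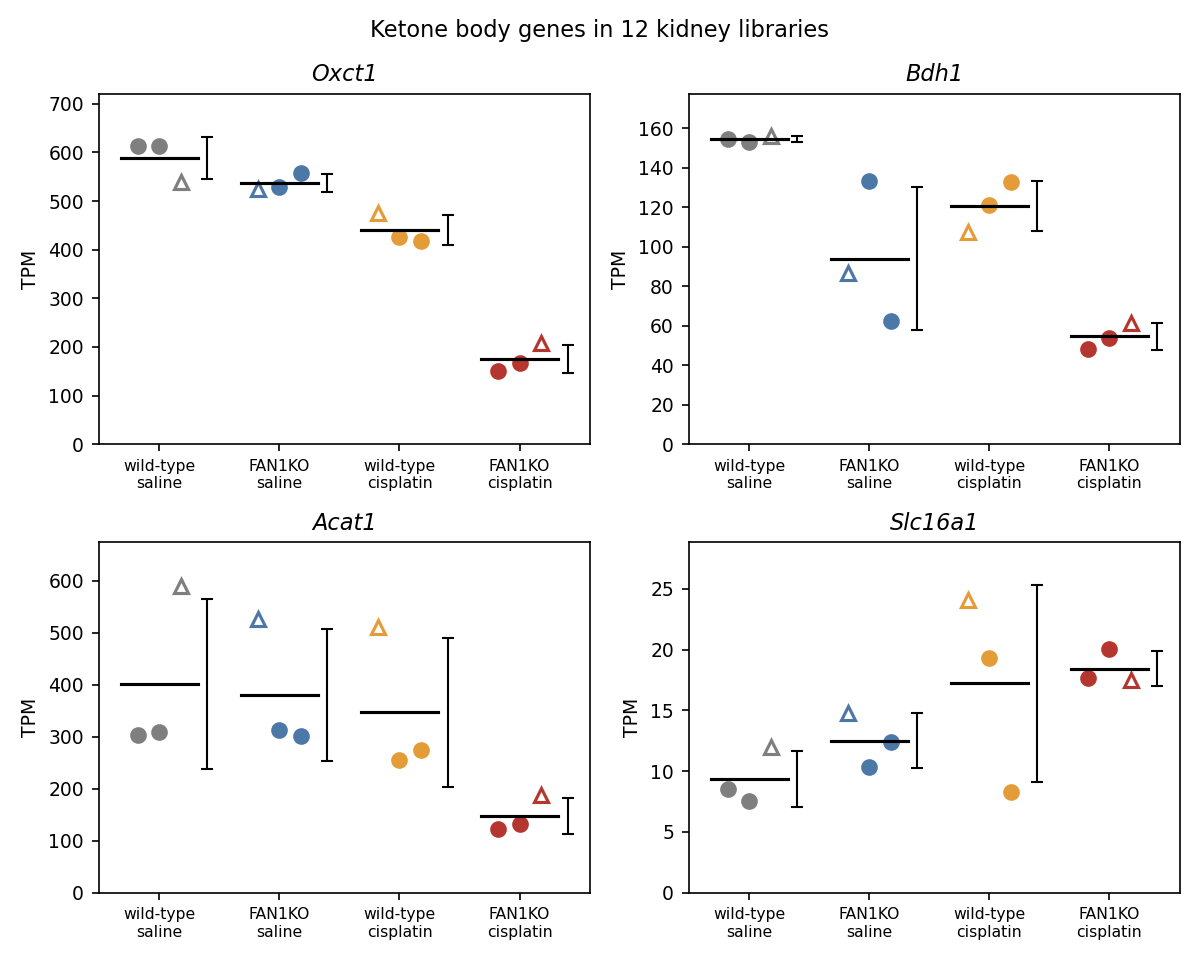
TPM (linear axis from 0) of the 4 genes in each of 12 kidneys by group, with filled circles for libraries without Y-linked RNA, open triangles for the 4 libraries with it, a line at the group mean and a bar of ± 1 SD (n = 3). Cisplatin-treated FAN1KO mice lie lowest for Oxct1 (151 to 208), Bdh1 (48.3 to 61.6) and Acat1 (123 to 187) but not for Slc16a1 (17.5 to 20.1), and the open triangle is the highest point for Acat1 in every group.

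Ordered by group mean (± SD, n = 3), Oxct1 ran from 588 ± 43.0 TPM in saline-treated wild-type mice through 537 ± 18.6 (FAN1KO, saline) and 440 ± 31.5 (wild-type, cisplatin) to 176 ± 29.3 in cisplatin-treated FAN1KO mice. The first pair of neighbours overlapped, and the next pairs did not. The Bdh1 order differed, with 155 ± 1.51 and 121 ± 12.6 in wild-type mice under saline and cisplatin and then 94.0 ± 36.1 and 54.6 ± 6.66 in FAN1KO mice under saline and cisplatin, where only the middle neighbours overlapped. For Acat1 the means were 400 ± 163, 380 ± 126, 347 ± 143 and 148 ± 34.8 TPM in the order given for Oxct1, and the last step alone was free of overlap. For Slc16a1 the order was turned round, from 18.4 ± 1.43 in FAN1KO cisplatin through 17.2 ± 8.09 and 12.5 ± 2.24 to 9.36 ± 2.30 in saline-treated wild-type mice, and all neighbours overlapped. With 3 kidneys against 3, a two-sided exact permutation test cannot go below p = 0.1, and each pair of neighbours without overlap had that p.

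The comparison of genotypes under cisplatin asks how FAN1KO and wild-type kidneys differ after the drug. Oxct1, Bdh1 and Acat1 were lower in cisplatin-treated FAN1KO than in cisplatin-treated wild-type kidneys, and Slc16a1 did not pass the test. The Oxct1 mean was 60.1% lower, with a log2 fold change of −1.33 ± 0.12 (SE), a 2.52-fold difference on the log2(TPM + 1) scale (adjusted p = 1.59e-04, limma with Benjamini–Hochberg adjustment over 14972 genes, n = 3 against 3). For Bdh1 the log2 fold change was −1.13 ± 0.22 (limma adjusted p = 0.00589), and for Acat1 it was −1.18 ± 0.34 (limma adjusted p = 0.0328). Slc16a1 had a log2 fold change of 0.21 ± 0.32 (limma adjusted p = 0.662), which was −0.08 under median-ratio scaling, so no direction is given for it.

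So 3 of the 4 genes passed the test in the lower direction, where 4.37% of all genes tested did so (19.6% passed in the higher direction), and the same 3 did not overlap between genotypes, against 8.6% of all genes lower without overlap. The Acat1 call was lost without wild-type cisplatin replicate 1 (limma adjusted p = 0.118), FAN1KO cisplatin replicate 1 (0.123) or FAN1KO cisplatin replicate 2 (0.0982), and under median-ratio scaling (−1.48, adjusted p = 0.0638). TPM is a share of each library, and over all genes tested the median change was 0.24 on the log2 scale here, against −0.02 under median-ratio scaling. Relative to that median, the changes were −1.58 for Oxct1, −1.38 for Bdh1, −1.42 for Acat1 and −0.04 for Slc16a1.

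Under saline the question is whether FAN1KO and wild-type kidneys differ in the same genes without the drug. None of the 4 passed limma's test, and 1 of 4 (Bdh1, lower) had an unadjusted p under 0.05, as did 5.44% of all genes tested in that direction, while voom, run on the recovered reads, also called 0 of 4. Bdh1 was nonetheless without overlap, its mean 39.2% lower in FAN1KO kidneys (log2 fold change −0.78 ± 0.22, limma adjusted p = 0.221), a position held by 7.83% of all genes tested, while 0.427% were called lower. Without FAN1KO saline replicate 2, the highest of its group, Bdh1 passed (−1.06, limma adjusted p = 0.0247). The log2 fold changes of Oxct1 (−0.13 ± 0.12), Acat1 (−0.05 ± 0.34) and Slc16a1 (0.39 ± 0.32) had limma adjusted p of 0.993, 1.00 and 0.947, and Acat1 changed sign without wild-type saline replicate 3 (0.26), FAN1KO saline replicate 2 (0.06) or FAN1KO saline replicate 3 (0.09) and under median-ratio scaling (0.0045).

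Within FAN1KO mice, cisplatin was compared with saline. Oxct1, Bdh1 and Acat1 fell and Slc16a1 did not pass the test, so that 3 of 4 genes were called lower against 4.9% of all genes tested (34.9% were called higher), and the same 3 were lower without overlap, against 7.43% of all genes. Oxct1 fell by 67.3% in the mean, with a log2 fold change of −1.62 ± 0.12 (limma adjusted p = 4.1e-05). Acat1 had −1.33 ± 0.34 (limma adjusted p = 0.0118), and Bdh1 −0.71 ± 0.22 (limma adjusted p = 0.0261). Slc16a1 was at 0.53 ± 0.32 (limma adjusted p = 0.199), with each treated kidney above each saline kidney, as for 47.4% of all genes tested. The median of all genes was 0.37 in this comparison (−0.03 under median-ratio scaling), and relative to it the changes were −1.99 for Oxct1, −1.08 for Bdh1, −1.70 for Acat1 and 0.16 for Slc16a1.

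The Oxct1 call held in each fit that left out a library, with adjusted p of at most 4.05e-04 in limma. Acat1 missed the threshold without FAN1KO cisplatin replicate 1 (limma adjusted p = 0.0514). Bdh1 missed it without FAN1KO saline replicate 1 (0.0581) or 2 (0.0580), without FAN1KO cisplatin replicate 1 (0.0978) or 2 (0.0674), and with only the 6 libraries compared (0.0768). Slc16a1 passed with only those 6 libraries (0.0411) and without wild-type cisplatin replicate 3 (0.0476), a library that is in neither group but enters the shared estimate of the spread.

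In wild-type mice, none of the 4 genes passed the test of cisplatin against saline by limma, or by voom on recovered reads, and 2 of 4 had an unadjusted p under 0.05. Those were Oxct1 (−0.42 ± 0.12, 25.2% lower in the mean, unadjusted p = 0.00601 and adjusted p = 1 in limma) and Slc16a1 (0.72 ± 0.32, unadjusted p = 0.0447 and adjusted p = 1 in limma). Few genes passed at all: limma called 0 of 14972 lower and 0.0601% higher. At an unadjusted p under 0.05 in limma, 67 genes (0.45%) were lower and 382 (2.55%) higher. Oxct1 and Bdh1 (−0.36 ± 0.22) were lower without overlap in treated wild-type kidneys, a position held by 1.08% of all genes tested. Acat1 (−0.21 ± 0.34) changed sign without wild-type saline replicate 3 (0.11). The wild-type and FAN1KO comparisons share no library, whereas the genotype and treatment comparisons within FAN1KO mice share the 3 cisplatin-treated FAN1KO kidneys, so the repeated fall of the 3 enzymes there is not independent.

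The interaction tests whether cisplatin acted differently in the 2 genotypes. Oxct1 passed, with the change in FAN1KO kidneys lower than that in wild-type kidneys by −1.20 ± 0.17 on the log2 scale (limma adjusted p = 0.00776), where 1.02% of genes tested passed in that direction and 5.22% in the other. Relative to the median of all genes the difference was −1.49. The call held under all alternatives run, with adjusted p up to 0.0296 when 1 library was left out. For Acat1 the difference was −1.13 ± 0.49 (limma adjusted p = 0.179), for Bdh1 −0.35 ± 0.31 (0.517) and for Slc16a1 −0.19 ± 0.45 (0.832). Of the 4 genes, Oxct1 was therefore the one whose response was shown to differ between genotypes in this fit. With the Y-linked level as a covariate the Acat1 interaction also passed (−1.13 ± 0.15, limma adjusted p = 9.19e-04). The shares above are those of the main fit, and with this covariate more of all genes tested passed the interaction (counts at the end).

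**Figure D2:**
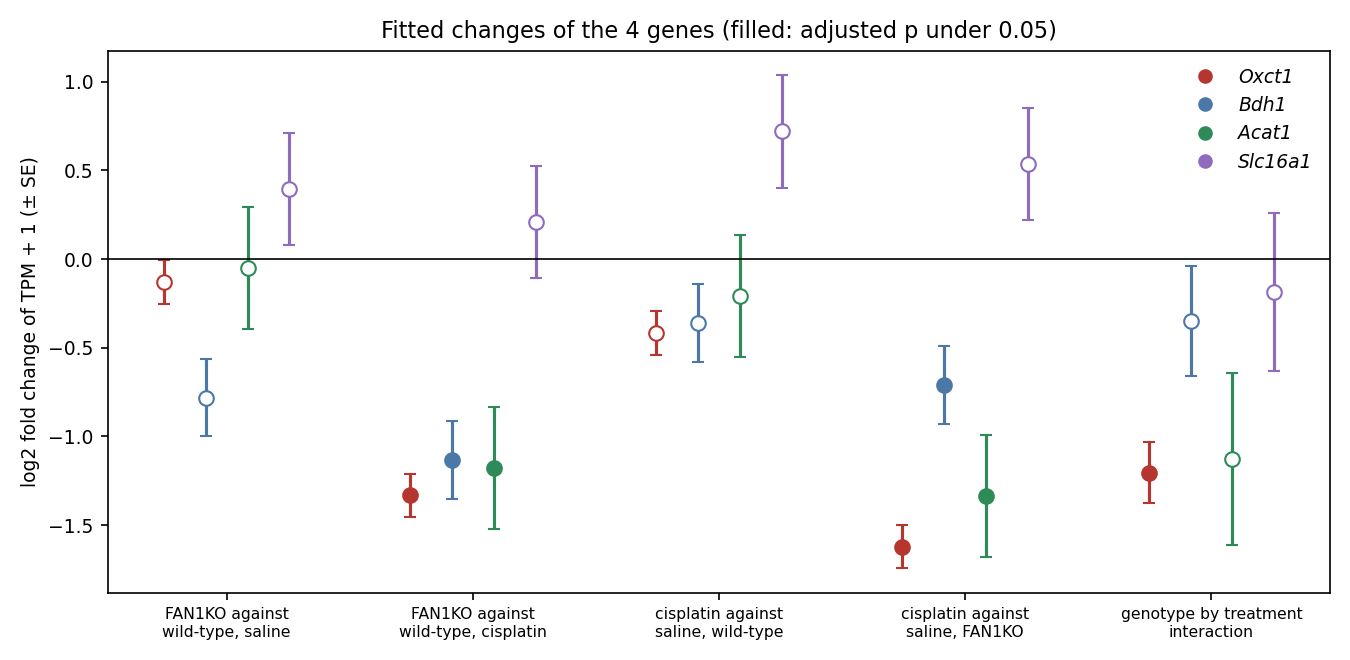
Log2 fold changes of TPM + 1 (vertical axis) of the 4 genes in 5 comparisons from limma, with bars of ± 1 SE and filled symbols where the adjusted p was under 0.05. Oxct1, Bdh1 and Acat1 are filled and below 0 in both comparisons that involve cisplatin-treated FAN1KO mice, only Oxct1 is filled in the interaction, and Slc16a1 is open throughout.

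Acat1 had the widest spread within groups, and that spread followed Y-linked RNA. In the libraries with Y-linked RNA its TPM was 1.92 times the mean of the other 2 in wild-type and 1.71 times in FAN1KO mice under saline, and 1.93 and 1.47 times under cisplatin. For Oxct1 the same ratios were 0.879, 0.965, 1.13 and 1.31, and for Bdh1 1.01, 0.887, 0.847 and 1.20, on both sides of 1. Slc16a1 was highest of 3 in that library in 3 groups (1.48, 1.30 and 1.74 times) and lowest in cisplatin-treated FAN1KO mice (0.928 times).

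Compared within these 2 kinds of libraries, the genotype difference under cisplatin for Acat1 was −1.44 between the 2 libraries with Y-linked RNA and −1.04 among the 4 without. The same values were −1.19 and −1.40 for Oxct1 and −0.80 and −1.30 for Bdh1, so all 3 enzymes were lower in FAN1KO kidneys in both. For Slc16a1 they were −0.44 and 0.53, opposite in sign. Cisplatin against saline in FAN1KO kidneys gave −1.33 and −1.77 for Oxct1, −0.49 and −0.82 for Bdh1, −1.48 and −1.26 for Acat1 and 0.23 and 0.69 for Slc16a1.

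Transport genes also differed between libraries with and without Y-linked RNA, in both directions. Slc5a8, a sodium-coupled monocarboxylate transporter, and Slc7a13, a proximal tubule amino acid transporter, were higher where it was present in every group. Slc5a8 was 2.77, 2.69, 2.86 and 2.47 times the mean of the other 2 libraries, in the order of groups above, and Slc7a13 was at 790, 719, 795 and 162 TPM, against at most 6.68 in any other library. The monocarboxylate transporter Slc16a7 (MCT2) was lowest of 3 in that library in every group, at 0.408, 0.463, 0.581 and 0.645 times the mean of the other 2, and so was Emb (embigin), at 0.497, 0.571, 0.474 and 0.622 times. These 4 genes were chosen for this description after their values were seen.

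**Figure D3:**
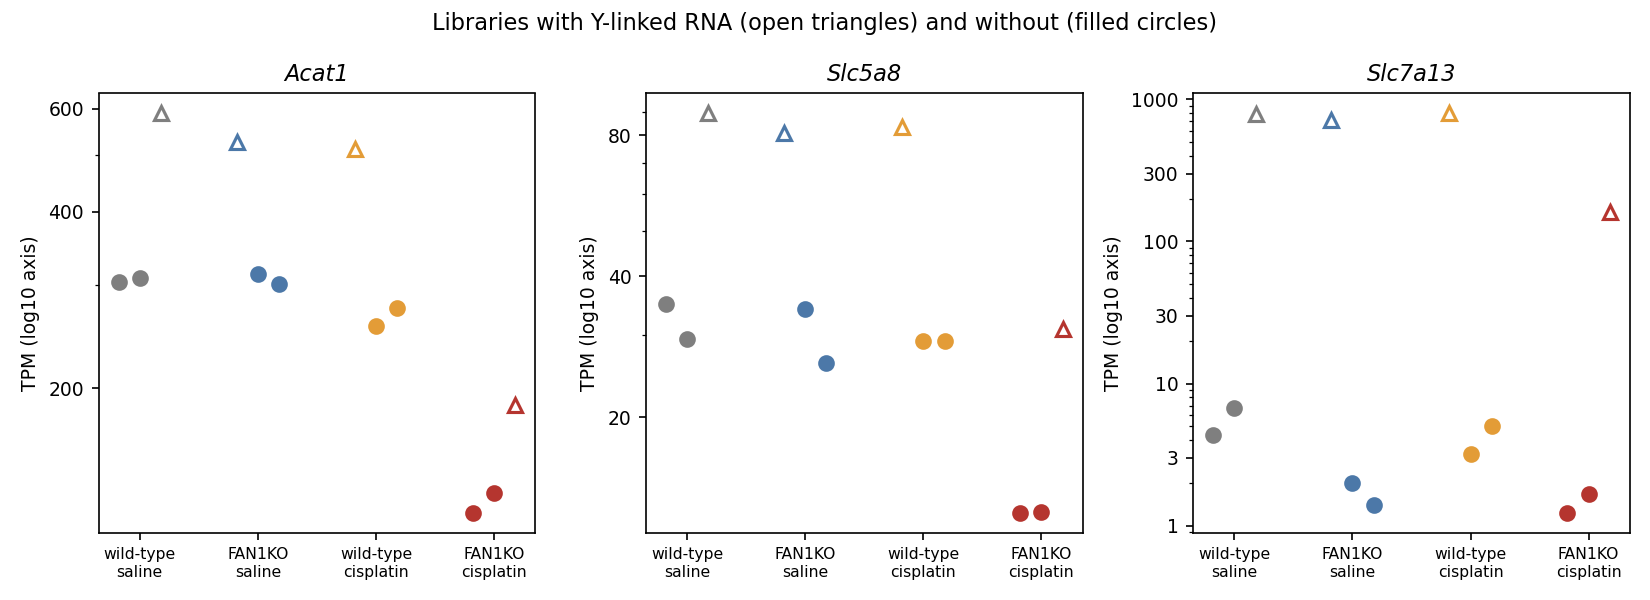
TPM (log10 axis) of Acat1, Slc5a8 and Slc7a13 in each of 12 kidneys by group, with open triangles for the 4 libraries with Y-linked RNA and filled circles for the other 8. All 3 genes are highest in the open triangle of each group, with Slc7a13 at 162 to 795 TPM there and at most 6.68 in the filled circles.

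The balance among the 4 genes was compared as log2 ratios of TPM within a library, which do not depend on how libraries are scaled. Over 6 pairs and 4 comparisons (24 exact permutation tests, two-sided, 3 against 3) the smallest adjusted p was 0.24, from raw p at the smallest these group sizes allow (0.1). Between Oxct1 and Acat1 the ratio overlapped in all 4 comparisons, with differences from −0.29 to −0.08. The 3 enzymes against Slc16a1 did part: between genotypes under cisplatin the differences were −1.57 for Oxct1, −1.38 for Bdh1 and −1.41 for Acat1, each without overlap. From saline to cisplatin in FAN1KO kidneys they were −2.20, −1.29 and −1.91, again without overlap. The Acat1 to Slc16a1 ratio was also lower without overlap in saline-treated FAN1KO mice (−0.48) and in cisplatin-treated wild-type mice (−0.98), and the Bdh1 to Slc16a1 ratio in saline-treated FAN1KO mice (−1.22). Among the enzymes, the Oxct1 to Bdh1 ratio alone parted 2 groups, falling by 0.91 from saline to cisplatin in FAN1KO kidneys.

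Across the 12 libraries Pearson's r of log2(TPM + 1) was 0.83 for Oxct1 and Acat1, 0.79 for Oxct1 and Bdh1 and 0.65 for Bdh1 and Acat1. It was −0.57, −0.61 and −0.22 for Slc16a1 with Oxct1, Bdh1 and Acat1. These libraries are 4 groups and share depth and tissue composition, so the values are a description. The genes tested whose pattern was most like that of Oxct1 were Phkb (r = 0.99), Ndufs1, Aldh6a1, Gjb2 and Uros (each r = 0.98). For Bdh1 they were Cryzl2, Acy1, Gpm6a, Mpv17l and Acadm (r = 0.94 to 0.95), and for Acat1 Aspg, Tcaim, Lypla1, Acss2 and Slc51a (r = 0.98 to 0.99). The likeness was weaker for Slc16a1, with H6pd (r = 0.90), Nelfa, Rbm38, B3galnt2 and Slc35b1 (r = 0.83 to 0.84).

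The other genes of the pathway were taken as 24 genes in 4 lists, of which 19 passed the filter and 5 did not (Oxct2a and Oxct2b, the testis forms of the transferase, the hormone Fgf21 and the receptors Hcar2 and Ffar3). Between genotypes under cisplatin, 3 of 19 were called lower in FAN1KO kidneys and 3 higher, beside 4.37% lower and 19.6% higher over all genes tested, with a median change of −0.14 (log2) beside 0.24 over all genes. Under saline, and for cisplatin in wild-type kidneys, limma called none of the 19, and voom called none. Under saline 1 of 19 (Aacs, lower) had an unadjusted p under 0.05 in limma, beside 5.44% of all genes tested lower and 2.94% higher. For cisplatin in wild-type kidneys 2 of 19 did (Aacs lower and Acat3 higher), beside 0.45% lower and 2.55% higher. From saline to cisplatin in FAN1KO kidneys 3 of 19 were called lower and 3 higher, beside 4.9% and 34.9% of all genes tested, with a median of −0.09 beside 0.37. Under median-ratio scaling the calls were 1 lower and 1 higher in the first of these comparisons and 6 lower and 1 higher in the last, so directions within the lists depend on the scaling.

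Among genes that use acetoacetate or acetoacetyl-CoA, Aacs, the cytosolic synthetase that channels acetoacetate to lipid, was lower under cisplatin (14.6 against 37.3 TPM, log2 fold change −1.24 ± 0.35, limma adjusted p = 0.0290, against 0.0527 under median-ratio scaling). Its groups also did not overlap under saline (36.0 against 77.4 TPM, −1.04 ± 0.35, limma adjusted p = 0.354), as for 7.83% of all genes tested. From saline to cisplatin in wild-type kidneys Aacs was likewise lower without overlap (77.4 to 37.3 TPM, −0.99 ± 0.35) but was not called, beside 1.08% of all genes lower without overlap. In every group it was highest in the library with Y-linked RNA (1.22 to 2.10 times the mean of the other 2). Bdh2, a cytosolic dehydrogenase, had −0.49 ± 0.17 between genotypes under cisplatin (limma adjusted p = 0.0659) and fell from saline to cisplatin in FAN1KO kidneys (−0.66 ± 0.17, limma adjusted p = 0.0129, and 0.0568 without FAN1KO cisplatin replicate 1). Acat3 was higher under cisplatin (0.48 ± 0.10, limma adjusted p = 0.00842), but Acat2 and Acat3 are near-identical copies between which reads may be split, and under median-ratio scaling its adjusted p was 0.404.

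Of the 8 transport genes, 1 was called in the genotype comparison under cisplatin: Emb, embigin, a partner protein of monocarboxylate transporters, was higher in FAN1KO kidneys (39.1 against 17.5 TPM, 1.15 ± 0.37, limma adjusted p = 0.0446). Bsg, basigin, the partner of MCT1, was at 608 to 668 against 538 to 661 TPM (0.08 ± 0.10, limma adjusted p = 0.631). Slc16a3, the lactate exporter MCT4, rose from saline to cisplatin in FAN1KO kidneys, from 0.494 to 2.08 TPM (1.05 ± 0.23, limma adjusted p = 0.00595). It was at a low level there (22 to 49 recovered reads per saline library and 101 to 139 per cisplatin library), and 34.9% of all genes tested were called higher in that comparison. With the Y-linked level as a covariate, 10 of the 19 pathway genes were called between genotypes under cisplatin, further transport genes among them. The count over all genes tested also rose with this covariate (given at the end), so these calls do not set transport genes apart. Slc5a8 (−1.28 ± 0.12, limma adjusted p = 4.59e-05) and Slc16a7 (−0.63 ± 0.20, 0.0255) were lower, and Slc16a3 (0.58 ± 0.18, 0.0208) was higher. Without the covariate their limma adjusted p were 0.145, 0.281 and 0.0987.

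Among regulators, Sirt3, the main mitochondrial deacetylase, was lower in FAN1KO kidneys under cisplatin (57.7 against 102 TPM, −0.80 ± 0.12, limma adjusted p = 0.00157) and not under saline (98.2 against 98.7 TPM, limma adjusted p = 1.00). It was the 1 gene of 19 called in the interaction (−0.80, limma adjusted p = 0.0243, against 0.0931 under median-ratio scaling), a call lost in 7 of 12 fits that left out a library (adjusted p up to 0.0700, without FAN1KO cisplatin replicate 1). Ppara, the fatty acid sensor that switches on ketogenic genes, was at 23.9 to 29.7 against 21.2 to 40.5 TPM (−0.14 ± 0.22, limma adjusted p = 0.675), and Ppargc1a had 0.14 ± 0.28 (0.742). Of the lactate and pyruvate genes, Mpc1, a subunit of the mitochondrial pyruvate carrier, was lower (−0.62 ± 0.20, limma adjusted p = 0.0463, against 0.0630 under median-ratio scaling). Ldhb was higher (0.34 ± 0.11, limma adjusted p = 0.0452, against 0.913 under median-ratio scaling). In the genotype comparison under cisplatin, the 12 fits that left out a library lost the call of Aacs 4 times, Emb 7, Mpc1 9 and Ldhb 11 times (limma adjusted p up to 0.107 and 0.155 for Aacs and Mpc1 without wild-type cisplatin replicate 1, 0.162 for Emb without FAN1KO cisplatin replicate 1 and 0.143 for Ldhb without FAN1KO cisplatin replicate 2), and kept those of Acat3 (up to 0.0409) and Sirt3 (up to 0.00967).

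**Figure D4:**
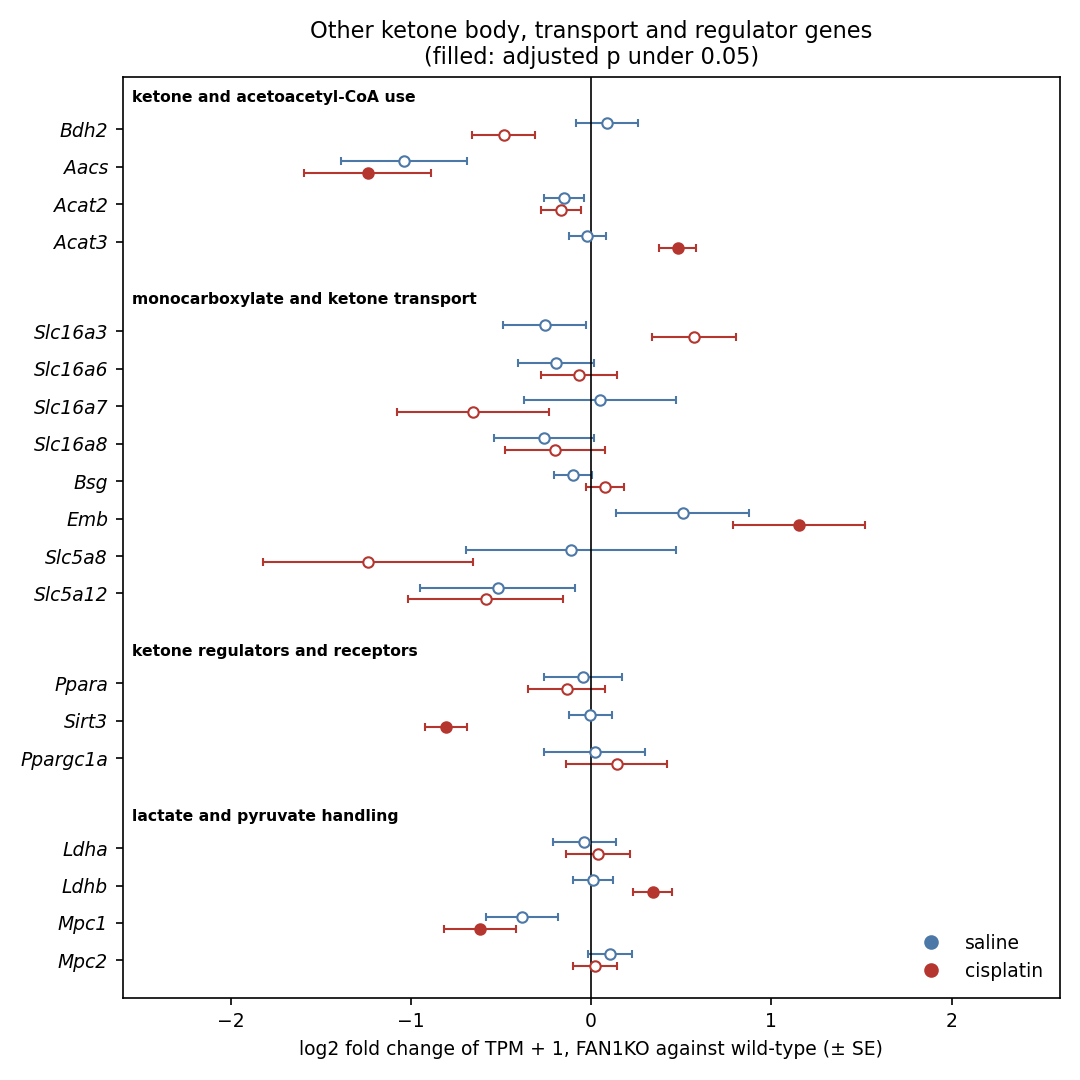
Log2 fold changes of TPM + 1 (horizontal axis, bars of ± 1 SE) of the 19 tested pathway genes in FAN1KO against wild-type kidneys, blue under saline and red under cisplatin, filled where limma's adjusted p was under 0.05. All 6 filled symbols are red, 3 of them below 0 (Aacs, Sirt3 and Mpc1) and 3 above (Acat3, Emb and Ldhb). Under median-ratio scaling Acat3 and Ldhb lie near 0, and Aacs and Mpc1 also lose their calls (limma adjusted p = 0.0527 and 0.0630).

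In whole kidneys, fewer cells of a type and less RNA per cell cannot be told apart, and markers of cell types moved in the same libraries as the ketone genes. Of 8 proximal tubule markers, 6 were called lower and none higher between genotypes under cisplatin, beside 4.37% lower over all genes tested. Under median-ratio scaling 5 were called lower, and with the replicate block 4 were called. Of 12 fits that left out a library, 9 lost the call of Aqp1, 8 that of Slc22a6 and 5 that of Cubn. The summed level of the 8 markers was 4687 to 5603 TPM in wild-type and 4625 to 6428 in FAN1KO mice under saline, and 4170 to 5802 and 1543 to 3080 under cisplatin, and none was at 0. The 3 injured tubule markers (Havcr1, Lcn2 and Krt20) were all higher, with sums of 711 to 1071 TPM against at most 110 in any other library. All 4 erythroid markers in the table were lower, with sums of 6.56 to 73.3 TPM in cisplatin-treated FAN1KO mice against at least 535 elsewhere, and 2 of 6 collecting duct markers were higher (0 under median-ratio scaling), beside 19.6% of all genes tested. The part of these changes in the ketone gene results was not tested.

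Set against the summed proximal tubule markers of the same library, the log2 ratio of Oxct1 was −3.43 in wild-type and −3.55 in FAN1KO mice under cisplatin (means of 3), with ranges that overlapped. For Bdh1 the means were −5.30 and −5.23, and for Acat1 −3.84 and −3.81, also with overlap. For Slc16a1 the ratio was −8.24 (−9.05 to −7.75) in wild-type and −6.79 (−7.46 to −6.45) in FAN1KO mice under cisplatin, without overlap. Slc16a1 itself was at 17.2 and 18.4 TPM in these groups, with overlap, while the marker sum was lower in FAN1KO mice. A gene of unchanged level can part in the same way, so this ratio gives no direction for Slc16a1. Under saline the Bdh1 ratio was −5.01 (−5.17 to −4.92) in wild-type and −5.96 (−6.54 to −5.12) in FAN1KO kidneys, which overlapped narrowly. The Slc16a1 ratio under saline was −9.08 (−9.28 to −8.873) and −8.81 (−8.867 to −8.76), just without overlap, and the ranges of Oxct1 and Acat1 overlapped. Slc34a1 was the largest part of the marker sum, at 2087 to 2776 TPM in wild-type and 837 to 1590 in FAN1KO mice under cisplatin. The ratio was not computed without it. Of the 8 markers, Slc7a13 differed with Y-linked RNA, and with the other 7 (chosen after seeing the data) the overlaps under cisplatin were as above, whereas under saline Bdh1 no longer overlapped (−4.95 to −4.92 against −6.54 to −5.12) and Slc16a1 did (−9.28 to −8.65 against −8.87 to −8.59).

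Oxct1 overlaps the gene BC037032 in the reference annotation, which was at 0.166 to 0.672 TPM, and Bdh1 overlaps Gm15743, which is not a gene of the table. Acat1 and Slc16a1 overlap no other gene there.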

How the data were processed

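The deposited data were a table of TPM that the authors made for 27179 genes, listed by NCBI Gene number, from 12 paired-end Illumina libraries, and it was used as deposited (columns left out, 0). The submitters' processing notes name mm10 and limma, and the aligner and counter are not given in the sources used here. Groups and replicate numbers came from the labels, and p-values measure the spread between mice. Names came from RefSeq (GRCm38.p6), which left 1904 identifiers unnamed. The 4 genes and all lists were chosen with earlier results of these data known, and some genes of the pathway are not reported here.

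The test covered 14972 genes, those at 1 TPM or more in 3 libraries or more. limma 3.58.1 (R 4.3.3) fitted 4 group means to log2(TPM + 1) in all 12 libraries, with a mean-variance trend and Benjamini–Hochberg adjustment at 0.05. Whole reads were recovered from the TPM steps for 22557 of 22557 genes with values (within 0.02 reads), giving 37202167 to 82947639 reads per library, so that 1 read in a gene of 1 kilobase was worth 0.0200 to 0.0479 TPM. These reads entered 1 alternative, limma's voom. Other alternatives were a pseudocount of 0.1, no filter, only the 6 libraries compared, median-ratio scaling, mitochondrially encoded or globin genes left out, the replicate number as a block, a Y-linked covariate, no trend and each library left out, and, chosen after seeing the data, only the 8 libraries with low Y-linked RNA. Named genes were the 4 genes, the pathway and marker lists, the 5 genes most correlated with each of the 4 and genes that overlap them. The steps were tested on simulated data. Python 3.11.15, numpy 2.4.6, pandas 2.3.3, scipy 1.17.1 and matplotlib 3.10.9 were also used.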

Additional observations from a re-analysis of the deposited data

Results flagged for a closer look

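The response to cisplatin differed between genotypes, by limma's interaction test, for Oxct1 (−1.20 on the log2 scale, adjusted p = 0.00776) among the 4 ketone body genes and for Sirt3 (−0.80, adjusted p = 0.0243) among the pathway lists. Both were lower in FAN1KO kidneys after cisplatin relative to the wild-type response. Of 12 fits that left out a library, 0 lost the Oxct1 call and 7 the Sirt3 call (adjusted p up to 0.0700).

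Marker genes with such a difference were Slc34a1 (−1.44, limma adjusted p = 0.0338) and Lrp2 (−1.38, 0.0390) of the proximal tubule and Pvalb (−3.68, 0.0402) of the distal convoluted tubule. The erythroid genes Hba-a1 (−5.89), Hba-a2 (−6.23) and Hbb-bs (−5.88) differed in the same direction (limma adjusted p of 0.0153 to 0.0206). The injured tubule genes Havcr1 (5.53), Lcn2 (5.80) and Krt20 (4.45) differed in the other direction (limma adjusted p of 0.0111 to 0.0300). Leaving out a library lost the calls of Slc34a1, Lrp2 and Pvalb in 9, 11 and 10 of 12 fits, of Havcr1, Hba-a1 and Hba-a2 in 6, 3 and 1, and of Hbb-bs, Lcn2 and Krt20 in 0. The groups of 3 were too small for a test of single libraries that stand apart.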

How the results depend on the processing

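The fits of the 4 genes kept their direction and their side of the threshold in 206 of 216 values under alternatives other than a left-out library, and in 224 of 240 with 1 library left out, and all 168 values of the ratios between genes moved by less than the spread between replicates. The cause of each change below was not tested.

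Under median-ratio scaling Acat1 lost its call between genotypes under cisplatin (−1.48), Slc16a1 there turned to −0.084 and Acat1 under saline to 0.0045. With only the 8 libraries with low Y-linked RNA, Acat1 under saline was at 0.0052, Bdh1 in cisplatin against saline in FAN1KO kidneys lost its call (−0.82), the Acat1 interaction gained one (−1.05, and −1.13 with the Y-linked covariate) and the Slc16a1 interaction turned to 0.083. With only the 6 libraries compared, Bdh1 (−0.71) lost and Slc16a1 (0.53) gained a call in cisplatin against saline in FAN1KO kidneys.

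With 1 library left out, values ranged from −1.36 to −0.86 for Acat1 and −0.22 to 0.50 for Slc16a1 between genotypes under cisplatin, and from −0.31 to 0.26 for Acat1 and −1.06 to −0.52 for Bdh1 under saline. In cisplatin against saline they ranged in FAN1KO kidneys from −1.52 to −1.08 for Acat1, −0.97 to −0.43 for Bdh1 and 0.41 to 0.65 for Slc16a1, in wild-type kidneys from −0.53 to 0.11 for Acat1, and in the interaction from −0.61 to 0.10 for Slc16a1. Slc16a1 changed sign without wild-type cisplatin replicate 3 (−0.22) between genotypes under cisplatin and without wild-type cisplatin replicate 1 (0.10) in the interaction.

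Genes called between genotypes under cisplatin numbered 3585, and 2175 with only the 6 libraries, 7323 with the Y-linked covariate, 5490 in the 8 libraries and 1539 to 3830 with 1 library left out. Under saline they numbered 115, and 72 without the filter, 27 with the 6 libraries, 61 with the replicate block, 421 with the covariate, 295 in the 8 libraries and 43 to 129 with 1 left out. For cisplatin against saline in FAN1KO kidneys they numbered 5962, 9141 with the covariate and 3622 to 6393 with 1 left out. In wild-type kidneys they numbered 9, and 0 with the 6 libraries and with the block, 15 under median-ratio scaling, 14 without mitochondrially encoded genes, 58 with the covariate, 63 in the 8 libraries and 0 to 41 with 1 left out. Interaction calls numbered 935, and 488, 599, 424, 4734 and 2438 under median-ratio scaling, without mitochondrially encoded genes, with the block, with the covariate and in the 8 libraries, and 269 to 1197 with 1 left out. Median-ratio scaling moved the calls from 654 lower and 2931 higher to 1154 and 1300 between genotypes under cisplatin, from 733 and 5229 to 2101 and 2157 for cisplatin in FAN1KO kidneys and from 153 and 782 to 156 and 332 in the interaction. Leaving out mitochondrially encoded genes gave 741 and 1863 between genotypes under cisplatin.

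The labels number the replicates 1 to 3 in each group, but these are different mice, and same-numbered libraries did not all deviate together (correlation of deviations 0.13 to 0.60 for replicate 2 over 4 comparisons, but −0.61 to −0.38 for replicate 1 and −0.60 to −0.31 for replicate 3). With the replicate block, the calls of the 4 genes were the same (Oxct1 adjusted p = 0.00149, Bdh1 0.0121 and Acat1 0.0421 between genotypes under cisplatin, limma).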
